A study of Mus musculus with 6 samples.

Results

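The proteasome subunit genes were taken as all genes whose symbol was Psma, Psmb, Psmc, Psmd, Psme, Psmf or Psmg followed by a number, and 49 of the 22651 genes quantified met this rule. mRNA levels were measured in the telencephalon, the part of the forebrain that includes the cortex, of mice at postnatal day 0. The WT group was 3 mice of the genotype TSC1 flox/flox;Emx1 +/+, and the TSC1 group was 3 mice of the genotype TSC1 flox/flox;Emx1-cre/+. The WT mice were littermates without Cre. Both groups therefore carried loxP-flanked Tsc1 on both alleles, and only the TSC1 mice carried the Cre recombinase, which removes exons of Tsc1. Cre was driven by Emx1, a gene of the developing dorsal cortex, so the telencephalon samples also held cells in which Tsc1 was not targeted. In tissue samples such as these, fewer cells of a type and less RNA per cell cannot be told apart.

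The proteasome is the protease that degrades proteins tagged with ubiquitin. Its 20S core is a barrel of stacked rings, in which alpha subunits (Psma genes) form the gate and beta subunits (Psmb genes) hold the cutting sites. The 19S regulatory particle caps the barrel and is made of ATPases that unfold substrates (Psmc genes) and non-ATPase subunits that bind and remove ubiquitin (Psmd genes). Under interferon, and in immune cells at rest, the catalytic beta subunits Psmb6, Psmb5 and Psmb7 can be replaced by Psmb9, Psmb8 and Psmb10, which gives the immunoproteasome. Tsc1 restrains the kinase complex mTORC1, and the comparison of TSC1 with WT asked how transcript levels differ when that restraint is lost.

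By role, the 49 genes were 7 alpha subunits, 7 constitutive beta subunits, 3 immunoproteasome subunits, 2 core subunits used in the testis or thymus (Psma8 and Psmb11), 6 ATPases, 11 non-ATPase subunits, 3 chaperones of 19S assembly (Psmd5, Psmd9 and Psmd10), 4 activators (Psme1 to Psme4), the PI31 regulator Psmf1 and 4 chaperones of 20S assembly (Psmg1 to Psmg4). The remaining gene, Psmc3ip, met the rule by its name alone. It encodes a cofactor of meiotic recombination and not a proteasome subunit.

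The catalytic subunits are the members in which constitutive and immune forms can be set against each other, and the 120 bases before the RefSeq start site (build GRCm38.p6) are shown for those with an entry. Psmb5 lay at chr14:54617996-54618115 (minus strand), Psmb8 at chr17:34198075-34198194 (plus strand), Psmb6 at chr11:70525237-70525356 (plus strand), Psmb9 at chr17:34187331-34187450 (minus strand) and Psmb10 at chr8:105938393-105938512 (minus strand). The sequences read 5′ to 3′ on the strand of the gene, and capitals mark the matched motif.
Psmb5: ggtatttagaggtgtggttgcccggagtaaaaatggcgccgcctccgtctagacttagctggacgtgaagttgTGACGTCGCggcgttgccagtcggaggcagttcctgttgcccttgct
Psmb6: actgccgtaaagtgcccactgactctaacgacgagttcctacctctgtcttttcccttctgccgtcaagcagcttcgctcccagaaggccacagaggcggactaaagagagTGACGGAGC
Psmb8: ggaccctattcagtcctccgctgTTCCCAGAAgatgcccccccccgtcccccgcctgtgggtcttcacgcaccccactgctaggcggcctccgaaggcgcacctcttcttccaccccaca
Psmb9: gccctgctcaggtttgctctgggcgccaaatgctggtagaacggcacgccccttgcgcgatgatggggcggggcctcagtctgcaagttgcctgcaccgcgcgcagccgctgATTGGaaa
Psmb10: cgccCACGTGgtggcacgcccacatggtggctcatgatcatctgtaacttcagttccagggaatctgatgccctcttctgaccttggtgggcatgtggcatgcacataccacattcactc

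Psmb5 and Psmb6 held the core of the antioxidant response element, TGACNNNGC, the kind of site bound by Nfe2l1 and Nfe2l2, starting 47 and 9 bases before the start site. Psmb8 held TTCNNNGAA, the palindrome bound by STAT factors after interferon gamma. Psmb9 held a reversed CCAAT box, and Psmb10 held the E-box CACGTG. Motifs were searched on both strands and overlaps between them were not removed. Over the full windows of 300 bases (250 before and 50 after the start), 40 of the 48 subunit and cofactor genes, without Psmc3ip, had an entry, with 43 promoters. TGACNNNGC was in 6 of these (14%), against 12.4% of the 32841 promoters of all genes. TTCNNNGAA was in 3 (6.98%, all genes 8.30%) and CCAAT in 14 (32.6%, all genes 37.4%). CACGTG was in 4 (9.30%, all genes 7.15%), and the interferon-stimulated response element (GAAA, any 2 bases, then GAAA again) was in 5 (11.6%, all genes 3.44%), those of Psmb3, Psmd4, Psmd9, Psme1 and Psmg4. A match says only that these letters occur in the window.

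The libraries held 14119365 to 17772865 expected counts. The genotype check was the Tsc1 level, whose gene-level count also covers exons that Cre leaves in place. Tsc1 was at 50.2, 32.0 and 28.4 TPM (transcript abundance corrected for transcript length and scaled to the same total in each library) in WT and at 27.1, 21.7 and 22.4 TPM in TSC1, so all TSC1 libraries were below all WT libraries. The fitted log2 fold change of TSC1 over WT was -0.66 (SE 0.175, edgeR adjusted p = 0.09998). Emx1, which marks the dorsal telencephalon, was at 36.2 to 47.4 TPM. Replicate 3 of each group held reads of the Y-linked gene Ddx3y (64.3 TPM in WT, 62.0 TPM in TSC1). The other 4 libraries held none, so each group mixed both sexes. Xist was at 442 to 510 TPM in these 4 libraries, and at 0.48 TPM (WT) and 0.66 TPM (TSC1) in replicate 3. Below, the libraries with Xist reads are the 4 at the higher level. On the first principal component (47.7% of the variance), TSC1 replicate 3 lay at -3.95, next to WT replicate 1 at -7.43 and far from the other TSC1 libraries at 26.5 and 30.3. Summed levels of striatal markers were 314 to 429 TPM in WT and 109.6 to 248 TPM in TSC1 (9 of 9 fitted below 0, 8 with an unadjusted p below 0.05 and 0 passing adjustment in edgeR), and those of choroid plexus markers were 1163 to 2452 TPM and 29.0 to 858 TPM (5 of 5 below 0, 5 with an unadjusted p below 0.05 and 0 passing adjustment). Erythroid markers summed to 1695 to 5567 TPM and 1292 to 1783 TPM (4 of 4 tested below 0, 4 with an unadjusted p below 0.05 and 0 passing adjustment), and endothelial markers to 201 to 263 TPM and 173 to 205 TPM (7 of 8 below 0, 5 with an unadjusted p below 0.05 and 0 passing adjustment). Dlx1, of the ventral telencephalon, was called lower in TSC1 (-0.68, edgeR adjusted p = 0.0183). Their part in the results was not tested.

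Most genes of the 26S proteasome, which is the 20S core with its 19S cap, were highly expressed, at levels that differed between genes. The 14 constitutive core genes had mean levels over the 6 libraries from 33.6 TPM (Psma5) to 495 TPM (Psma7), with a median of 285 TPM. The 17 genes of the 19S particle spanned a narrower range, from 55.4 TPM (Psmd11) to 282 TPM (Psmc6), with a median of 197 TPM. The span was 14.7-fold in the core and 5.08-fold in the 19S particle, although the subunits of each complex enter it in equal numbers. In all, 27 of the 31 genes had a mean above 100 TPM, and the other 4 were Psmb3, Psmd11, Psma3 and Psma5. The level of 1 gene varied little between mice, with a coefficient of variation over the 6 libraries of 1.40% (Psmd7) to 8.40% (Psmb6) and a median of 4.56%.

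In the order of mean levels, the range of Psma7 over the 6 libraries did not reach that of Psmb7, the next gene at 427 TPM. The range of Psma7 did overlap with that of Psmb4, which reached 457 TPM. From Psmb7 down to Psmd8 at 249 TPM, each gene overlapped in range with its neighbour, so this order is not resolved. Neighbours also did not overlap between Psmd8 and Psmd4 (225 TPM) and between Psmd6 and Psmc1. However, Psmd2 (208 to 237 TPM) reached into the ranges of both Psmd8 and Psmc1. Breaks that no gene crossed lay between Psmc2 and Psmd3, Psmc4 and Psme1, Psme3 and Psmb3, Psma5 and Psmd9, and Psme2 and Psmb8. The assembly chaperones and activators sat lower, with Psmg1 to Psmg4 between 37.4 and 59.2 TPM and Psme1 highest of the activators at 107.8 TPM. Psmb8, Psmb9 and the tissue-restricted Psma8 and Psmb11 were at the bottom of the order, while Psmb10 (22.1 TPM) lay above Psme2 (15.3 TPM).

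**Figure D1:**
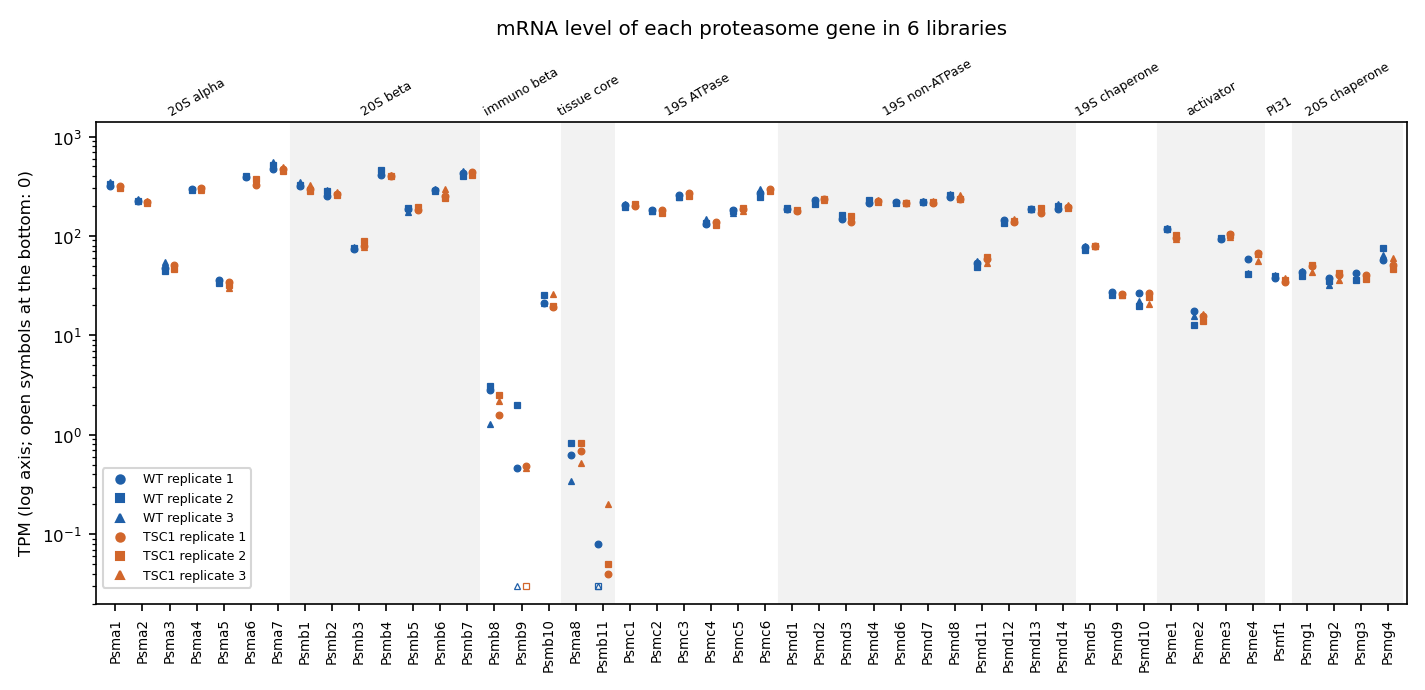
Level of each of the 48 proteasome subunit and cofactor genes (without Psmc3ip) in TPM on a log axis, with 1 symbol per library and genes grouped by role. The constitutive 20S and 19S genes form a band between 33.6 TPM (mean of Psma5) and 495 TPM (mean of Psma7), while Psmb8 (2.24 TPM), Psma8, Psmb9 and Psmb11 lie far below it.

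No gene of the proteasome passed the test between TSC1 and WT. Of 46 members with enough counts to be tested, 0 reached an adjusted p below 0.05 by edgeR's quasi-likelihood test, while 212 of 13969 genes (1.52%) did so over the whole table, 120 higher (0.859%) and 92 lower (0.659%) in TSC1. At an unadjusted p below 0.05 there were 5 members (10.9%), Psme1, Psme4, Psma6, Psmg4 and Psmc3ip, where 18.0% of all tested genes reached it. TPM values of the groups did not overlap for 8 members (17.4%), against 22.7% of all tested genes. Psmb3, Psmd5 and Psme3 were the 3 higher in every TSC1 library, and Psma2, Psma6, Psmd1, Psme1 and Psmc3ip were the 5 lower. These shares were not above those of all genes. DESeq2 called 1 member, Psme4, and limma called 0.

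The 26S genes had narrow intervals for their fitted changes in the whole tissue, without correction for transcript length or for the number of genes. The 95% intervals of the 31 fitted changes ran from a fold of 0.763 to a fold of 1.25 at their extremes, and the interval of 1 gene (Psma6) left out 0. The fitted log2 fold change was below 0 for 24 and above 0 for 7 of them, with a median of -0.053, beside a median of -0.0027 over all tested genes.

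**Figure D2:**
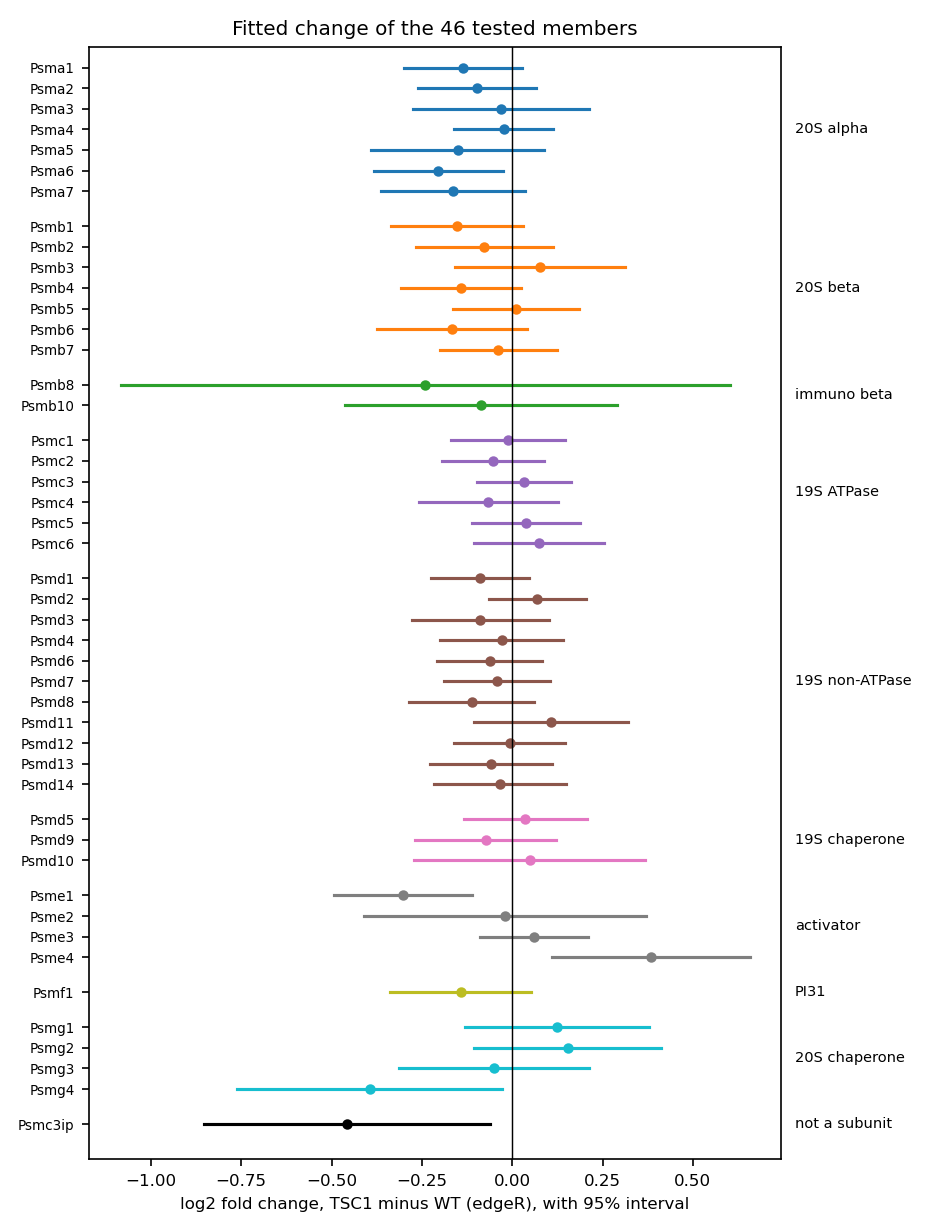
Fitted log2 fold change of TSC1 over WT (edgeR) with its 95% interval for the 46 tested members, grouped by role. Intervals of 5 members leave out 0 before adjustment for the number of genes, and that of Psmb8 is the widest, from -1.08 to 0.60.

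Median fits were lower in the core than in the regulatory particle. All 7 alpha genes were fitted below 0 (median log2 fold change -0.14, range -0.20 to -0.024), and so were 5 of 7 constitutive beta genes (median -0.077), which gave the 14 core genes a median of -0.12 with 12 below 0. The 17 genes of the 19S particle had a median of -0.034, with 12 below 0, and this median turned to 0.020 once the trend with transcript length was removed, to 0.0011 with limma and to 0.013 without WT replicate 3. Without WT replicate 3 the core median was -0.067 and the alpha median -0.077. The ATPases were split 3 to 3 around 0 (median 0.010), and 9 of 11 non-ATPase genes were below 0 (median -0.042). Each of these genes missed the adjusted threshold, and no test was made of the medians.

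The summed level of the 14 core genes was 3754, 3857 and 4004 TPM in WT (mean 3872 ± 125 SD, n = 3) and 3651, 3602 and 3780 TPM in TSC1 (3678 ± 91.8 SD, n = 3). The highest TSC1 library exceeded the lowest WT library, so the groups overlapped. The sum over the 7 alpha genes was 1790, 1847 and 1932 TPM in WT and 1728, 1723 and 1761 TPM in TSC1, with no overlap. The 17 genes of the 19S particle summed to 3276 ± 48.6 TPM in WT and 3301 ± 21.4 TPM in TSC1 (SD, n = 3), a difference smaller than the spread in WT. WT replicate 3 had the highest level of all libraries for 9 of the 14 core genes but for 4 of the 17 genes of the 19S particle. TSC1 replicate 2 had the lowest level for 6 of the 14 core genes. All 49 members together made up 0.756 to 0.800% of the TPM of a library.

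Fitted changes differed with transcript length over the whole table, and core transcripts are short. Over all tested genes the median log2 fold change rose with length, from -0.11 in the 800 genes of 500 to 1000 bases, through -0.066 (1356 genes of 1000 to 1500 bases), -0.041 (1500 to 2000 bases) and -0.011 (2000 to 3000 bases), to 0.018 (3000 to 5000 bases) and 0.077 (2394 genes above 5000 bases). The core transcripts had a median length of 983 bases, beside 1564 bases for the 19S genes and 2890 bases for all tested genes. The members had medians of -0.087 (14 members of 500 to 1000 bases), -0.062 (15 members of 1000 to 1500 bases), -0.034 (9 members of 1500 to 2000 bases) and 0.036 (5 members of 2000 to 3000 bases). The 2 members of 3000 to 5000 bases, Psmd1 and Psmf1, had a median of -0.12, and Psme4, the only member above 5000 bases, was at 0.38. Within the core the fits did not rise with length, since the shortest gene, Psmb3 (731 bases), had the highest fit (0.077) and longer ones such as Psma5 (1217 bases) were at -0.15. The libraries also differed in the length RSEM subtracts from a transcript to give its effective length, which was 45.8 to 49.7 bases in WT and 55.1 to 57.6 bases in TSC1. Offsets for effective length left the core median at -0.11, with 12 of 14 below 0. With the length trend removed from each library, the median of the 14 core genes was -0.025, with 8 below 0, that of the beta genes was 0.030 and that of the alpha genes was -0.061. The cause of the trend was not tested.

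**Figure D3:**
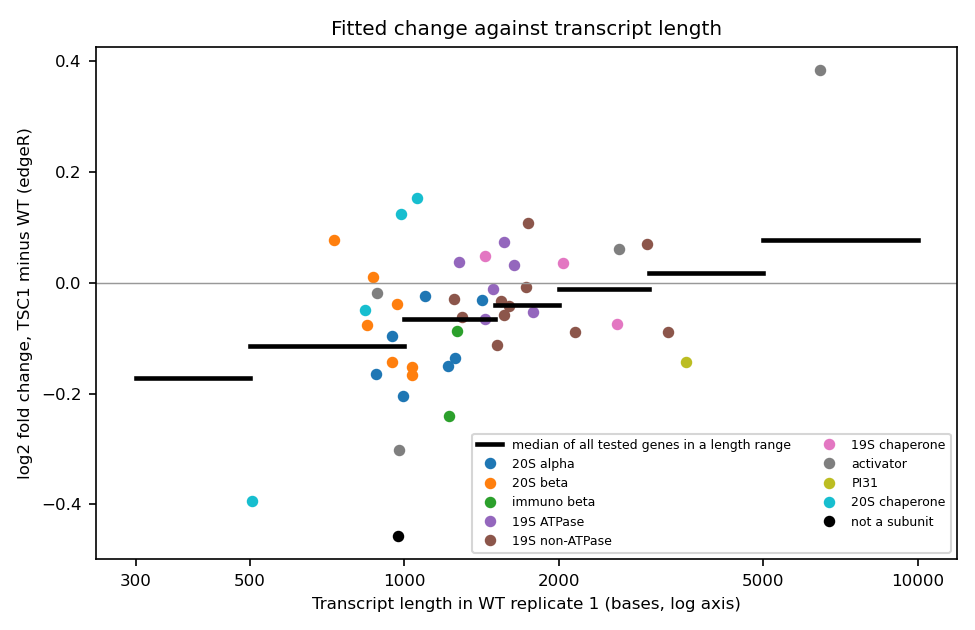
Fitted log2 fold change of TSC1 over WT for the 46 tested members against transcript length on a log axis, coloured by role, with black bars for the median of all tested genes in each length range. The bars climb from -0.17 below 500 bases to 0.077 above 5000 bases, and the 14 members of 500 to 1000 bases have a median of -0.087 beside the bar at -0.11.

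Among the alpha genes, Psma6 had the lowest fit. It was at 395, 404 and 404 TPM in WT and at 328, 374 and 368 TPM in TSC1, so every TSC1 library was below every WT library. The log2 fold change was -0.20 (SE 0.0789), but the edgeR adjusted p was 0.212. With the length trend removed, the fit of Psma6 was -0.12 (edgeR adjusted p = 0.451). Psma4 had the highest fit of this class, with 295, 288 and 293 TPM in WT, 302, 294 and 288 TPM in TSC1 and a log2 fold change of -0.024 (95% interval -0.16 to 0.11), and limma and the length-corrected fit placed it above 0. Psma7, the most abundant gene of the proteasome, was at 474, 519 and 558 TPM in WT and at 473, 453 and 496 TPM in TSC1 (log2 fold change -0.16, edgeR adjusted p = 0.367), with overlap.

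The catalytic beta genes differed little between the groups. Psmb5, which carries the chymotrypsin-like activity, was at 186, 192 and 176 TPM in WT and at 183, 194 and 196 TPM in TSC1. Its log2 fold change was 0.011 with a 95% interval of -0.16 to 0.19, a sign that changed with the normalisation (-0.020 with upper quartile scaling). Psmb7, of the trypsin-like activity, was at 433, 401 and 447 TPM in WT and at 436, 407 and 437 TPM in TSC1, a change of -0.038 on the log2 scale (interval -0.20 to 0.12), or 0.054 with the length trend removed. Psmb6, of the caspase-like activity, was the lowest fit of the beta class. Its levels were 289, 282 and 297 TPM in WT and 254, 241 and 296 TPM in TSC1. TSC1 replicate 3 was within the WT range while the other TSC1 libraries were below it, and the log2 fold change was -0.17 (SE 0.0922, edgeR adjusted p = 0.380). The structural subunit Psmb3 had the highest fit, with 73.3, 76.1 and 77.6 TPM in WT and 79.4, 88.9 and 78.2 TPM in TSC1. These did not overlap, but the gap was narrow and the log2 fold change of 0.077 had an interval of -0.16 to 0.31.

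The immunoproteasome genes made up a small part of the mRNA of the catalytic subunits in both groups. Psmb8, Psmb9 and Psmb10 summed to 2.64, 3.36 and 2.36% of the TPM of all 6 catalytic genes in WT and to 2.37, 2.58 and 3.01% in TSC1. Psmb10 was the most abundant of the 3, at 21.3, 25.3 and 20.9 TPM in WT and at 19.1, 19.8 and 26.2 TPM in TSC1. The highest library was thus a TSC1 library and so was the lowest, and the log2 fold change was -0.087 (SE 0.167, edgeR adjusted p = 0.821). It was 0.012 without WT replicate 2 and 0.011 without TSC1 replicate 1.

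Psmb8 rested on 19, 24 and 8 expected counts in WT and on 10, 15 and 15 in TSC1. In TPM this was 2.79, 3.10 and 1.28 in WT and 1.59, 2.51 and 2.19 in TSC1, with all TSC1 libraries inside the WT range. The log2 fold change of -0.24 had a 95% interval from -1.08 to 0.60, and it was 0.0053 without WT replicate 2. At this depth neither a fall to 0.472 of the WT level nor a rise of 1.52-fold lay outside the interval. Psmb9 had 2, 10 and 0 counts in WT and 2, 0 and 2 counts in TSC1 and was not tested. The 2 libraries with no count allow up to 3 counts, or 0.212 CPM (counts scaled to library size) in WT replicate 3 and 0.206 CPM in TSC1 replicate 2, by counting error only. Fitted without the filter on low counts, its log2 fold change was -1.40 (SE 1.11, edgeR adjusted p = 0.604), and most of its counts came from WT replicate 2. Psmb9 and Psmb8 lie close together on chromosome 17, and both were at the lower end of the immune forms.

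Each immune form was set against the constitutive subunit whose place it takes. Psmb8 was 1.496, 1.61 and 0.729% of Psmb5 in WT (1.28 ± 0.481%, SD, n = 3) and 0.867, 1.29 and 1.12% in TSC1 (1.09 ± 0.215%, SD, n = 3). The groups overlapped, and a two-sided exact permutation test gave p = 0.7 (0.7 after adjustment over the pairs tested). Psmb10 was 4.93, 6.32 and 4.68% of Psmb7 in WT (5.31 ± 0.882%) and 4.38, 4.87 and 5.99% in TSC1 (5.08 ± 0.824%), with an exact permutation p of 0.6 (adjusted 0.7). With 3 against 3 libraries the smallest p such a test can give is 0.1. Psmb9 was 0.159, 0.710 and 0% of Psmb6 in WT and 0.193, 0 and 0.155% in TSC1 and was left without a test.

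**Figure D4:**
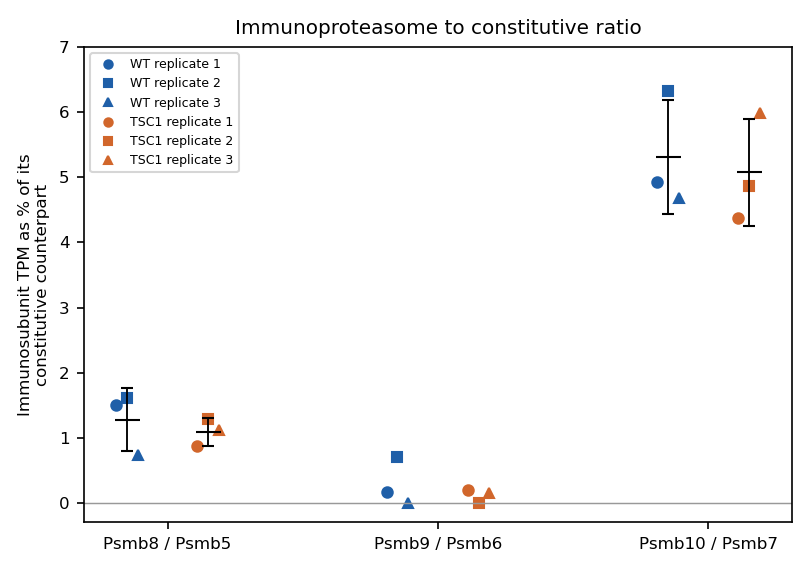
TPM of each immunoproteasome gene as a percent of its constitutive counterpart, with 1 symbol per library and, for the pairs without libraries at 0, horizontal lines for the mean and bars for the SD (n = 3). The groups overlap in every pair, with Psmb10 at 4.38 to 6.32% of Psmb7 and Psmb8 at 0.729 to 1.61% of Psmb5.

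Genes that act with the immunoproteasome in antigen presentation were measured beside it. Of 8 listed genes 7 were tested and edgeR called 0, with 1 (Tapbp) at an unadjusted p below 0.05 (median log2 fold change -0.11). Of 13 interferon-response genes 11 were tested and edgeR called 0, with 1 (Stat2) at an unadjusted p below 0.05 (median 0.094). DESeq2 called Stat2 (0.48, adjusted p = 0.0322), as did edgeR without TSC1 replicate 3 (0.61, adjusted p = 0.0116) and in the 4 libraries with Xist reads (0.61, adjusted p = 0.0308), and limma called none of either list. The peptide transporter subunit Tap1, at 3.31, 3.89 and 3.11 TPM in WT and 2.05, 3.17 and 2.25 TPM in TSC1, had the lowest fit of the antigen-processing list (-0.50, SE 0.226, edgeR adjusted p = 0.283). The immune forms are abundant in microglia, the macrophages of the brain. The 11 microglia markers summed to 190 to 255 TPM in WT and 182 to 264 TPM in TSC1, none of them was at 0 in any library, and 1, Fcrls, fell (log2 fold change -0.75, edgeR adjusted p = 0.0391). Of the 11 markers 7 were fitted below 0 (median -0.19), and 4 had an unadjusted p below 0.05, all of them lower in TSC1 (Cx3cr1 at -0.53, P2ry12 at -0.63, Csf1r at -0.35 and Fcrls). Their part in the levels of Psmb8, Psmb9 and Psmb10 was not tested.

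The ATPases of the 19S base had fits on both sides of 0. Psmc6 was highest, at 269, 249 and 295 TPM in WT and 299, 286 and 292 TPM in TSC1 (log2 fold change 0.074, interval -0.11 to 0.25). Psmc4 was lowest, at 131, 133 and 148 TPM in WT and 139, 130.0 and 135 TPM in TSC1 (-0.066, interval -0.26 to 0.13), and it stood at 0.00029 in the 4 libraries with Xist reads. Both overlapped between groups. The other 4 ATPases lay between these fits, with intervals that all held 0.

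Among the non-ATPase genes, Psmd11, a scaffold subunit of the lid, had the highest fit. It was at 53.9, 48.6 and 55.7 TPM in WT and 59.0, 61.3 and 53.9 TPM in TSC1 (log2 fold change 0.11, SE 0.0944, edgeR adjusted p = 0.587). Psmd8, also of the lid, had the lowest fit, at 245, 259 and 263 TPM in WT and 233, 238 and 255 TPM in TSC1 (-0.11, SE 0.0769, adjusted p = 0.475). Both genes overlapped between groups. Psmd14, the enzyme that cuts ubiquitin chains from the substrate, was at 185, 198 and 208 TPM in WT and 198, 189.7 and 204 TPM in TSC1 (-0.034, interval -0.22 to 0.15). Psmd4, a ubiquitin receptor, was at 215, 228 and 232 TPM in WT and 223, 222 and 232 TPM in TSC1 (-0.030, interval -0.20 to 0.14). The main scaffold of the base, Psmd1, was lower in each TSC1 library, with 187, 190.5 and 185 TPM against 177, 181 and 181 TPM, but the adjusted p was 0.470 (edgeR).

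The activators held the widest fits with both signs. Psme1 encodes the alpha subunit of PA28, a cap that opens the core without ATP. It was at 116, 116 and 120.2 TPM in WT and at 96.3, 103 and 94.2 TPM in TSC1. The TSC1 libraries were all below the WT libraries with a gap larger than the spread in either group. The log2 fold change was -0.30 (SE 0.0849, 95% interval -0.49 to -0.11), the smallest p of all members, but it did not pass adjustment over all genes (edgeR adjusted p = 0.109, and 0.0629 to 0.330 over the alternatives). With the length trend removed, the fit of Psme1 was -0.21 (edgeR adjusted p = 0.225). Its partner in the PA28 ring, Psme2, did not move with it. Psme2 was at 17.5, 12.7 and 15.7 TPM in WT and 15.6, 14.0 and 16.4 TPM in TSC1, with all TSC1 libraries inside the WT range and a log2 fold change of -0.019 (interval -0.41 to 0.37), which is 0.078 with the length trend removed. The difference between the fits of Psme1 and Psme2 was not tested.

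Psme4 encodes PA200, a nuclear activator linked to histone degradation, and had the highest fit of the members. It was at 58.9, 41.2 and 42.5 TPM in WT and at 67.4, 65.7 and 55.9 TPM in TSC1. WT replicate 1 overlapped with the TSC1 range and the other WT libraries were far below it. The log2 fold change was 0.38 (SE 0.121, interval 0.11 to 0.66, edgeR adjusted p = 0.145). It passed the threshold under DESeq2 (0.38, adjusted p = 0.0451) and, in edgeR, without WT replicate 1 (0.54, adjusted p = 0.0254). At 6442 bases Psme4 was the longest member and the only one above 5000 bases, where the median of all tested genes was 0.077. Its fit was 0.33 with the length trend removed (edgeR adjusted p = 0.105). Psme3, the nuclear homolog PA28 gamma, was at 93.7, 95.03 and 95.06 TPM in WT and 104, 101 and 96.7 TPM in TSC1 (0.061, interval -0.088 to 0.21).

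The regulator PI31 (Psmf1) was at 37.8, 39.4 and 40.5 TPM in WT and 34.7, 35.9 and 38.0 TPM in TSC1, which overlapped (log2 fold change -0.14, edgeR adjusted p = 0.425). Of the chaperones that pair up alpha and beta subunits, Psmg4 had the lowest fit, at 57.5, 75.9 and 64.9 TPM in WT and 50.5, 46.4 and 60.2 TPM in TSC1. TSC1 replicate 3 exceeded WT replicate 1, and the log2 fold change was -0.39 (SE 0.163, adjusted p = 0.246). Psmg4 was also the shortest member, at 505 bases, and its fit was -0.24 with the length trend removed (edgeR adjusted p = 0.441). Psmg2 had the highest fit of these chaperones, at 37.7, 34.9 and 32.2 TPM in WT and 40.9, 42.8 and 35.9 TPM in TSC1 (0.15, interval -0.11 to 0.41).

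The 19S chaperones had fits near 0. Psmd10, which is also known as gankyrin, was at 26.5, 19.9 and 22.4 TPM in WT and 26.9, 24.5 and 20.9 TPM in TSC1 (log2 fold change 0.049, interval -0.27 to 0.37), and it was -0.041 without WT replicate 2 and -0.021 without TSC1 replicate 1. Psmd9 was at 27.3, 25.5 and 26.6 TPM in WT and 26.1, 25.2 and 25.6 TPM in TSC1 (-0.074, interval -0.27 to 0.12). The tissue-restricted Psma8 was at 0.34 to 0.83 TPM (3 to 9 counts) and Psmb11 at 0 to 0.20 TPM (0 to 5 counts). These 2 genes did not pass the filter on low counts, and mRNA of the thymus and testis forms of the core was thus at most a trace here. Psmc3ip, the gene that shares only the name, was at 19.99, 20.2 and 23.0 TPM in WT and 16.0, 12.8 and 18.3 TPM in TSC1, without overlap (log2 fold change -0.46, edgeR adjusted p = 0.212). Its fit was -0.37 with the length trend removed (edgeR adjusted p = 0.291).

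Genes that work with the proteasome were drawn from separate lists. Of 13 proteasome-associated proteins, such as ubiquitin receptors and chain-editing enzymes, 13 were tested and edgeR called 0, with 2 (Uchl5 and Ube3c) at an unadjusted p below 0.05 (median log2 fold change 0.045). Pomp, the chaperone that completes the core, was at 369, 382 and 404 TPM in WT and 354, 359 and 366 TPM in TSC1. The groups did not overlap, and the log2 fold change was -0.14 (SE 0.0762, edgeR adjusted p = 0.372), or -0.019 with the length trend removed (adjusted p = 0.912). Ube3c, a ligase on the proteasome, had the highest fit (0.27, adjusted p = 0.104), and DESeq2 called it (adjusted p = 0.0474).

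Of 9 regulators of proteasome gene expression 9 were tested, and 0 were called by edgeR, DESeq2 or limma or had an unadjusted p below 0.05 in edgeR (median 0.025). Nfe2l1, the factor that raises proteasome genes when degradation is impaired, was at 115, 104 and 96.2 TPM in WT and 109, 109 and 126 TPM in TSC1 (log2 fold change 0.099, edgeR adjusted p = 0.543), and the fit was -0.010 in the 4 libraries with Xist reads. Nfe2l2, the oxidative stress factor, was at 19.01, 8.02 and 6.45 TPM in WT and 24.1, 17.7 and 8.13 TPM in TSC1, so its spread within each group was wide (0.55, SE 0.428, adjusted p = 0.540).

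Among genes that supply ubiquitin, Rps27a, which encodes ubiquitin joined to a ribosomal protein, fell in TSC1. Rps27a was at 94.3, 95.7 and 92.5 TPM in WT and at 68.4, 71.3 and 68.5 TPM in TSC1. The groups were separated by a gap much larger than the spread within either, and the log2 fold change was -0.48 (SE 0.0895, edgeR adjusted p = 0.0411). The polyubiquitin gene Ubb was at 4200, 4602 and 4529 TPM in WT and at 4036, 4085 and 4265 TPM in TSC1, with overlap (-0.14, SE 0.0792, edgeR adjusted p = 0.384). The Rps27a transcript is short, at 795 bases, and with the length trend removed it lost the call (-0.37, adjusted p = 0.0728), as it did in the 4 libraries with Xist reads (adjusted p = 0.0965). Without WT replicate 2, WT replicate 3, TSC1 replicate 1 or TSC1 replicate 2, Rps27a missed the threshold as well, with edgeR adjusted p between 0.143 and 0.192.

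**Figure D5:**
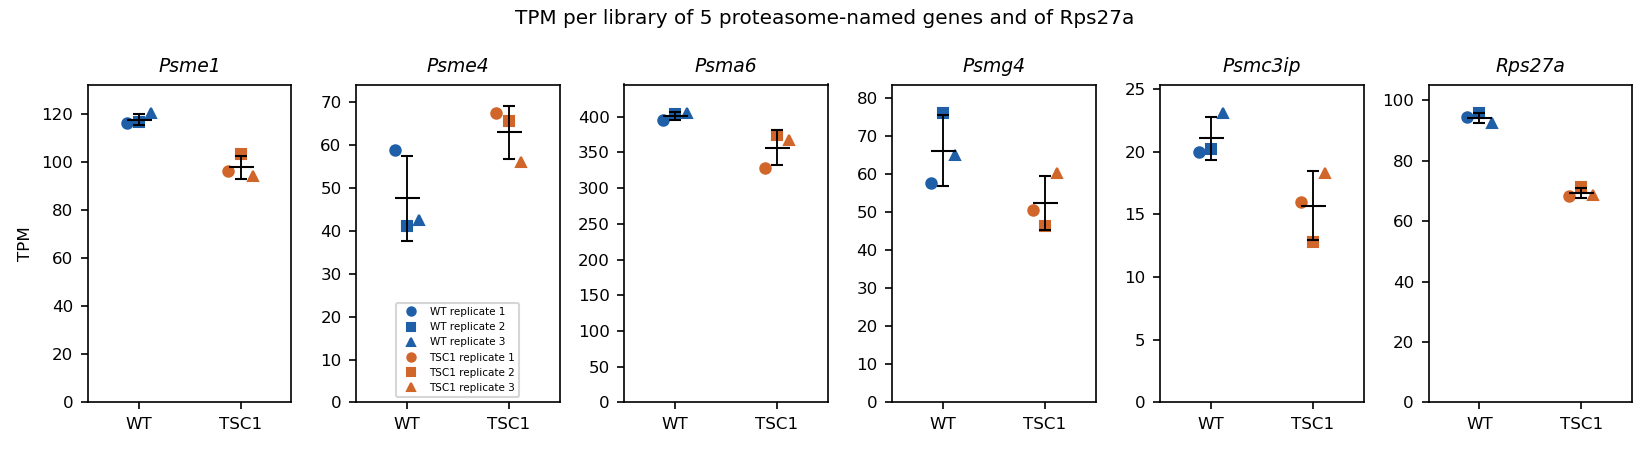
TPM per library of the 5 members with an unadjusted p below 0.05 and of Rps27a, with horizontal lines for the mean and bars for the SD (n = 3), each axis starting at 0. The groups separate for Psme1, Psma6, Psmc3ip and Rps27a, while WT replicate 1 of Psme4 (58.9 TPM) and TSC1 replicate 3 of Psmg4 (60.2 TPM) lie in the range of the other group.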

How the data were processed

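mRNA was sequenced from the telencephalon of 3 WT and 3 TSC1 mice, and groups came from the genotype labels. Per the study's methods, the authors used MapSplice2 for alignment of trimmed reads (mm10) and RSEM 1.2.12 for quantification, and the tables list RefSeq transcript identifiers. The deposited tables give expected counts, TPM, FPKM (scaled to effective length and library size, used only for an alternative of the ratio tests) and effective length for each gene, as made by the authors.

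Expected counts were rounded, genes of low count were removed with filterByExpr, and TSC1 was compared with WT by edgeR 4.0.16 quasi-likelihood tests with TMM scaling in R 4.3.3, with Benjamini-Hochberg adjustment over 13969 genes and a threshold of 0.05. DESeq2 1.42.0 and limma 3.58.1 on log2(TPM + 1) were alternatives, with other scalings, filters, effective length offsets, libraries left out and a replicate block. Ratios were compared by exact permutation tests. Count precision is limited by totals of 14119365 to 17772865, where 3 counts correspond to 0.169 to 0.212 CPM. The analysis code was tested on simulated data. None of the 49 members had a fractional expected count.

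The members and gene lists were chosen with earlier results of these data known. Named in full were members past the threshold, the catalytic genes, Psme1 and Psme2, the highest and lowest fit of each class with 3 or more tested members, untested members, called genes of the associated lists, and Nfe2l1, Nfe2l2 and Pomp. Other genes were chosen after their values were seen. The authors' permutation-based test of differential expression was not used. Some genes of the associated lists are not reported here.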

Additional observations from a re-analysis of the deposited data

How the results depend on the processing

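No member passed the threshold in 15 of the 17 alternative fits. The number of genes called over the whole table moved from 212 to 636 with DESeq2, 346 without a filter on low counts, 434 in the 4 libraries with Xist reads, and 29 to 799 on leaving out 1 library at a time, and the members called went to 1 with DESeq2 (Psme4) and 0 to 1 on leaving out a library. Upper quartile scaling shifted the median of all genes to -0.034 and the share of calls that were higher in TSC1 from 56.6% to 48.6%. Replicate numbers were shared between groups, and the correlations of their deviations were 0.27, -0.13 and 0.32. Between unlike numbers the correlations ran from -0.39 to 0.21. Whether the numbers pair the mice cannot be told from these values. With the number as a replicate block, edgeR called 551 genes and 0 members.

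With the length trend removed, an alternative added after the data were seen like that of the Xist libraries, class medians moved to -0.061 (alpha), 0.030 (beta), -0.025 (20S core), 0.020 (19S), 0.062 (ATPases) and 0.14 (20S chaperones). The last was also 0.0064 with upper quartile scaling, 0.073 and 0.073 with limma (pseudocounts 1 and 0.5) and 0.063 in the Xist libraries. On leaving out a library it ran from -0.0042 to 0.068, the 19S chaperones from -0.041 to 0.048, the beta genes from -0.15 to -0.024, the alpha genes from -0.16 to -0.077, the 20S core from -0.15 to -0.067 and the 19S genes from -0.071 to 0.013. Genes called in the associated lists numbered 4 with DESeq2, 1 with the length trend removed and 0 to 3 on leaving out a library.

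Of 26 named genes in 17 alternatives, 403 values kept direction and side of the threshold, 26 changed sign, 10 lost and 2 gained a call. Signs changed for Nfe2l1 (-0.010, Xist libraries), Psma4 (0.012 with both limma fits, 0.058 without the length trend, 0.0036 in the Xist libraries), Psmb5 (-0.020 with upper quartile scaling, -0.036 in the Xist libraries), Psmb7 (0.054 without the length trend), Psmc4 (0.00029, Xist libraries) and Psme2 (0.012 and 0.013 with limma, 0.078 without the length trend). On leaving out a library, fits ran from -0.26 to 0.012 (Psmb10), -0.018 to 0.054 (Psmb5), -0.078 to 0.017 (Psmb7), -0.50 to 0.0053 (Psmb8), -0.12 to 0.013 (Psmc4), -0.041 to 0.15 (Psmd10) and -0.13 to 0.066 (Psme2), and log2 ratios from -0.53 to 0.047 (Psmb8 to Psmb5) and -0.19 to 0.067 (Psmb10 to Psmb7). The cause was not tested.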
